A study of Homo sapiens with 6 samples.

Results

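The SR splicing factor genes SRSF1, SRSF2, SRSF3, SRSF4, SRSF5, SRSF6, SRSF7, SRSF9, SRSF10 and SRSF11 were examined in T24 cells, an established human bladder cancer cell line. They were chosen by name, as the serine and arginine rich (SR) splicing factor family, and all 10 were found among the 58288 genes of the count table. All 10 also passed the filter on low counts, which kept 14415 genes. Polyadenylated RNA, enriched with oligo dT beads, was sequenced from T24 cells transfected with a control siRNA (NC), with si-circ235-1 or with si-circ235-2. Both targeting siRNAs were designed against the junction at which the circular RNA circ235 is closed, and the question was which mRNAs change when circ235 is depleted. Each condition had 2 libraries labelled as biological replicates, and whether they came from separate cultures is not given, so the tests measure the spread between these libraries. T24 is 1 cell line, and circular RNA lacks a poly(A) tail, so these libraries do not show how far circ235 itself fell.

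SR proteins bind short sequences in exons through RNA recognition motifs and recruit the splicing machinery through a tail rich in arginine and serine, the RS domain. SRPK kinases in the cytoplasm and CLK kinases in the nucleus phosphorylate this tail, the importin TNPO3 carries the proteins into the nucleus, and much of the stored protein lies in nuclear speckles. Many SR genes limit their own output: an extra exon with a premature stop codon, called a poison exon, is included when the protein is abundant, and the resulting transcript is removed by nonsense-mediated decay. The counts here are sums per gene, so transcripts with and without such an exon cannot be told apart, and neither can fewer cells with an RNA and less of it per cell.

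In GENCODE release 29, each of the 10 genes had at least 1 transcript annotated as a target of nonsense-mediated decay, from 1 for SRSF5, SRSF6 and SRSF9 to 6 for SRSF7. In SRSF3, SRSF4, SRSF6, SRSF7 and SRSF9, such a transcript differed from the principal transcript by an added exon that held an in-frame stop codon. The stretches below are shown because exons of this kind are the means of the self-limitation described above. They were found in the annotation, and whether they were included in these cells was not measured. Each is 30 nt of the added exon, written 5′ to 3′ on the strand of the gene from GRCh38, with the premature stop codon in capitals.
SRSF3 (chr6:36599837-36599866, plus strand): cttctcaccaccctcTGAatctgcattagc
SRSF7 (chr2:38749307-38749336, minus strand): ttgagtcagtcgcctTGAttcagaatgtca
SRSF4 (chr1:29160006-29160035, minus strand): gcctgttccatttgcTGAccttgggttacc
SRSF6 (chr20:43459287-43459316, plus strand): gcagccttttgccatTAGacgcagggtgat
SRSF9 (chr12:120464793-120464822, minus strand): aaaactatTAGgaaatggctgcagtcctga

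The added exons differed in length and place. That of SRSF3 had 456 nt and lay in intron 3, and that of SRSF7 had 449 nt and also lay in intron 3. The exons of SRSF6 (268 nt), SRSF4 (195 nt) and SRSF9 (90 nt) lay in intron 2 of their genes. The first base of the stop codon was base 32 of the exon in SRSF3, 26 in SRSF7, 39 in SRSF4, 150 in SRSF6 and 9 in SRSF9. The rule took an internal exon of a decay transcript that lay inside an intron of the principal transcript and held the stop codon. Where a gene had several, the longest was taken. No such exon was found for SRSF1, SRSF2, SRSF5, SRSF10 and SRSF11. Premature stops that arise in another way were not looked for, so these genes, which also have annotated decay transcripts, are not shown to lack them.

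**Figure D1:**
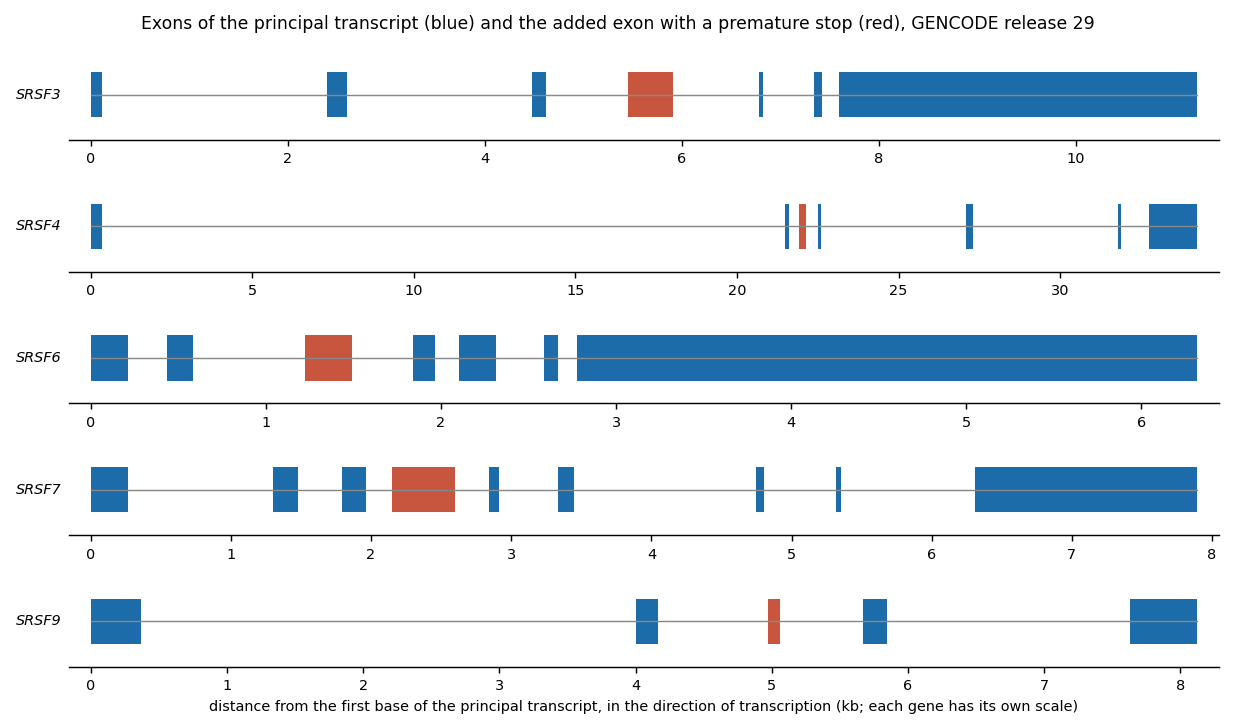
Exons (blue) of the principal transcript of SRSF3, SRSF4, SRSF6, SRSF7 and SRSF9 and the added exon with a premature stop codon (red), drawn against the distance in kb from the first base of the transcript, with a scale of its own for each gene. The added exon lies in intron 3 of SRSF3 and SRSF7 and in intron 2 of the others.

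The proteins differ in size and in their tails. Principal transcripts encode from 164 residues (SRSF3, the smallest member) to 494 residues (SRSF4). The number of adjacent arginine and serine pairs, in either order, was 113 in SRSF4, 76 in SRSF6 and 9 in SRSF9, which has the shortest tail of the family. The most alike proteins in pairwise alignment were SRSF4 and SRSF6 (75.1% identical over the aligned positions), SRSF1 and SRSF9 (73.5%), SRSF4 and SRSF5 (69.7%), SRSF5 and SRSF6 (68.5%), and SRSF3 and SRSF7 (68.4%). These values include the repetitive tail, which aligns readily between any 2 members.

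Libraries held 15373992 to 19912893 counts, and the SRSF genes 803 to 10356 counts per library, so the number of libraries limited the precision more than counting error did. The TMM scaling factors were 1.10 and 1.19 in the si-circ235-2 libraries and 0.889 to 1.03 in the other 4. Mitochondrial genes took 4.58% to 5.93% of the counts. The keratins KRT7, KRT8 and KRT18 were abundant, while KRT19 had 0 counts in 5 of 6 libraries. Of 10 urothelial markers, 3 reached 1 CPM (CPM being counts scaled to a common library size) in any library, and UPK3A and KRT20 were at 0 in all 6, so the bladder label rests on the cell line's name rather than on markers of differentiated urothelium. Summed urothelial markers, nearly all of it PPARG, were at 25.9 to 27.5 CPM in NC, 42.4 to 50.6 in si-circ235-1 and 54.3 to 55.2 in si-circ235-2. Keratins summed to 3900 to 5560, 4260 to 4590 and 3060 to 3640 CPM in the same order. Of 8 markers of blood, endothelial, liver and glial cells, 1 reached 1 CPM, their sum was 0.722 to 2.34 CPM, and PTPRC, CD3E and ALB were among those at 0 throughout. The part of these differences in the results below was not tested.

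All 10 members were well expressed in NC. Divided by the length of the principal transcript, the NC levels (mean ± SD, n = 2) were highest for SRSF3 at 96.6 ± 2.29 CPM per kb, SRSF1 at 92.8 ± 3.26 and SRSF7 at 90.2 ± 4.85. Neighbours among these did not separate, as their 2 libraries overlapped. Next came SRSF2 (69.2 ± 7.78 CPM per kb), SRSF10 (67.6 ± 7.16), SRSF9 (61.2 ± 5.82), SRSF6 (55.3 ± 8.32) and SRSF5 (55.0 ± 6.61), each overlapping its neighbour but all below SRSF7 in both libraries. The lowest levels per length were those of SRSF4 at 36.2 ± 2.88 and SRSF11 at 34.5 ± 1.01 CPM per kb, below SRSF5 and overlapping each other. The order depended on the length used. With the union of all annotated exons, SRSF2 came to the top at 66.2 CPM per kb, SRSF10 moved from place 5 to place 9 at 10.7, and SRSF4 was lowest at 9.72. Summed over the 10 members, the level was 1700 and 1834 CPM in NC, 1775 and 1852 in si-circ235-1, and 1632 and 1527 in si-circ235-2. Both si-circ235-2 sums lay below the other 4, an order that rests on the TMM scaling: without it they were 1798 and 1819, beside 1511 and 1893 in NC and 1628 and 1666 in si-circ235-1.

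Comparisons between conditions used edgeR's quasi-likelihood test on the whole table, with p-values adjusted by Benjamini-Hochberg over the 14415 genes tested and a threshold of 0.05. The comparisons of each siRNA with NC share the same 2 NC libraries and are not independent. Against NC, 0 of 10 SRSF genes passed with si-circ235-1, where 5.88% of all genes tested did. DESeq2 also gave 0. In edgeR an unadjusted p under the threshold was found for 2 of the 10 (SRSF3 and SRSF5) and for 3644 of the 14415 genes tested. With si-circ235-2, 1 of 10 passed, SRSF7, which fell. Of all genes tested, 31.4% passed in that comparison and 15.7% passed as lower. Between the siRNAs, 4 of 10 passed, with SRSF4 and SRSF5 higher and SRSF3 and SRSF7 lower in si-circ235-2. This share was close to the background of 39.7% of all genes, of which 21.1% were higher and 18.6% lower. The median log2 fold change of the members was -0.17 with si-circ235-1 against NC, -0.15 with si-circ235-2 against NC and -0.11 between the siRNAs, beside -0.033, -0.0038 and 0.035 for all genes tested. Libraries of the conditions compared did not overlap for 6, 6 and 8 of 10 members, where 55%, 71.4% and 72.1% of all genes tested did not. Without TMM scaling, the share of higher calls over all genes was 25.3%, 71.0% and 75.2% in the 3 comparisons, against 38.1%, 50.1% and 53.2% with it, and the median of all genes moved to -0.11, 0.25 and 0.37.

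**Figure D2:**
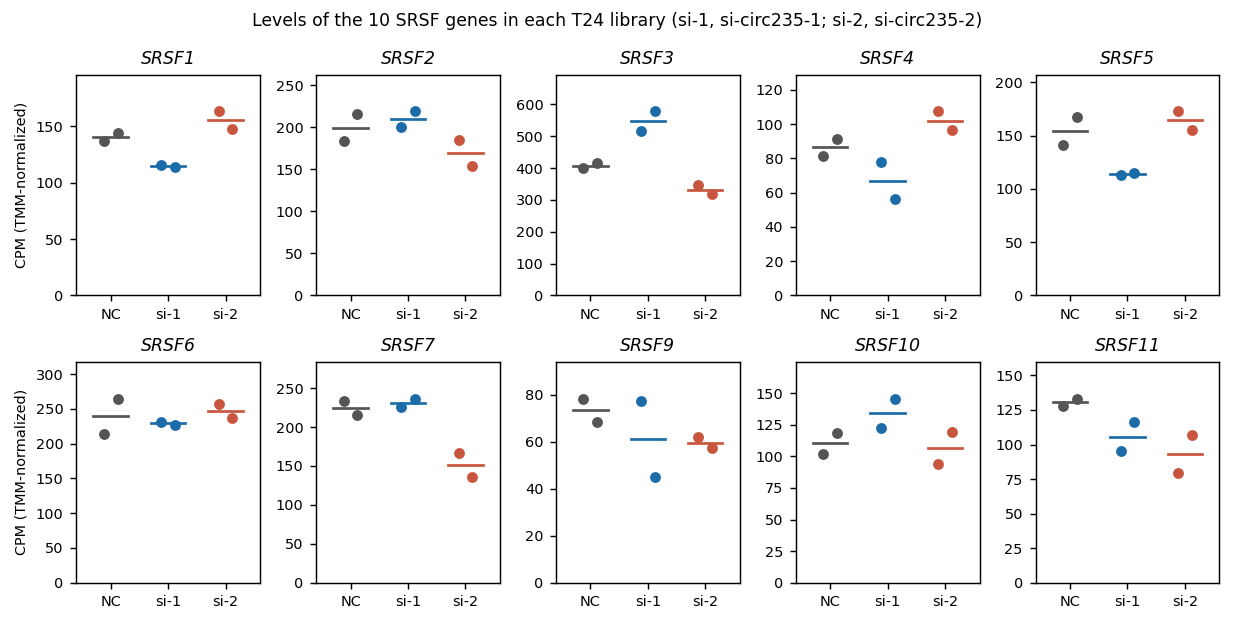
Level of each SRSF gene in CPM after TMM scaling, in NC (grey), si-circ235-1 (si-1, blue) and si-circ235-2 (si-2, red), with a point per library, a line at the mean of the 2 libraries and axes from 0. SRSF3 is highest in si-circ235-1 and lowest in si-circ235-2, SRSF7 is low in si-circ235-2 alone, and SRSF1, SRSF4 and SRSF5 are lowest in si-circ235-1.

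SRSF3 and SRSF7 have a lone RNA recognition motif, and both also act as adaptors for the export of mRNA. SRSF3 (ENSG00000112081.16, chr6:36594353-36605600, plus strand) was at 400.9 and 414.6 CPM in NC, at 516.0 and 578.1 in si-circ235-1, and at 345.4 and 319.1 in si-circ235-2. The 3 conditions did not overlap, with si-circ235-1 above NC and si-circ235-2 below it. Between the siRNAs, SRSF3 was 1.65-fold lower in si-circ235-2 (log2 fold change -0.72, SE 0.19, 95% interval -1.14 to -0.30, adjusted p = 0.0123, edgeR). Against NC the log2 fold change was 0.42 with si-circ235-1 (SE 0.19, interval 0.0087 to 0.84, adjusted p = 0.189) and -0.30 with si-circ235-2 (SE 0.19, interval -0.71 to 0.12, adjusted p = 0.256), so neither difference from NC alone passed. The difference between the siRNAs passed in 10 of 13 alternatives. It did not pass without TMM scaling (-0.38, adjusted p = 0.1), without si-circ235-1 replicate 2 (adjusted p = 0.0863) or without si-circ235-2 replicate 2 (adjusted p = 0.0856).

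SRSF7 (ENSG00000115875.18, chr2:38743599-38751494, minus strand), which carries a zinc knuckle beside its RNA recognition motif, was at 233.1 and 216.0 CPM in NC, at 225.7 and 236.4 in si-circ235-1, and at 166.3 and 135.4 in si-circ235-2. Both si-circ235-2 libraries lay below the other 4, while NC and si-circ235-1 overlapped. SRSF7 fell 1.49-fold with si-circ235-2 against NC (log2 fold change -0.57, SE 0.19, 95% interval -0.98 to -0.17, adjusted p = 0.0371, edgeR). It was 1.53-fold lower in si-circ235-2 than in si-circ235-1 (-0.62, SE 0.19, interval -1.02 to -0.21, adjusted p = 0.0227). With si-circ235-1 against NC the log2 fold change was 0.041 (SE 0.18, interval -0.37 to 0.45, adjusted p = 0.92). The fall against NC passed in 5 of 13 alternatives only. It was lost without TMM scaling (-0.32, adjusted p = 0.174), with the 2 conditions fitted alone (-0.58, adjusted p = 0.0518), and on leaving out any of the 6 libraries (-0.73 to -0.43, adjusted p from 0.055 to 0.28). Where a library of a compared condition is left out, here and below, the remaining library is assumed to vary like the other conditions and fewer libraries enter the test, so a lost call alone does not show a smaller difference. The difference between the siRNAs passed in 9 of 13. It was lost without TMM scaling (-0.28, adjusted p = 0.199), without si-circ235-1 replicate 1 (0.0651) or 2 (0.105), and without si-circ235-2 replicate 2 (0.205).

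SRSF4, SRSF5 and SRSF6 have a pair of RNA recognition motifs each and resemble each other in sequence. SRSF4 (ENSG00000116350.16, chr1:29147743-29181987, minus strand) was at 81.6 and 91.31 CPM in NC, at 77.85 and 56.1 in si-circ235-1, and at 107.4 and 96.65 in si-circ235-2. The conditions did not overlap, with si-circ235-1 below NC and si-circ235-2 above it, the reverse of the order in SRSF3. Between the siRNAs, SRSF4 was 1.52-fold higher in si-circ235-2 (log2 fold change 0.61, SE 0.20, 95% interval 0.16 to 1.05, adjusted p = 0.0338, edgeR). Against NC it differed by -0.37 with si-circ235-1 (SE 0.20, interval -0.81 to 0.075, adjusted p = 0.284) and 0.24 with si-circ235-2 (SE 0.20, interval -0.20 to 0.68, adjusted p = 0.394). The difference between the siRNAs passed in 9 of 13 alternatives. It dropped to 0.26 (adjusted p = 0.407) once the dependence of each library on the length and GC content of transcripts had been fitted and subtracted. It was also lost without si-circ235-1 replicate 2 (0.38, adjusted p = 0.247), without si-circ235-2 replicate 1 (adjusted p = 0.137) and without si-circ235-2 replicate 2 (adjusted p = 0.0528).

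SRSF5 (ENSG00000100650.15, chr14:69726900-69772005, plus strand) was at 141.6 and 167.9 CPM in NC, at 112.9 and 114.9 in si-circ235-1, and at 172.8 and 155.7 in si-circ235-2. Both si-circ235-1 libraries lay below the other 4, and NC and si-circ235-2 overlapped. SRSF5 was 1.44-fold higher in si-circ235-2 than in si-circ235-1 (log2 fold change 0.53, SE 0.18, 95% interval 0.13 to 0.92, adjusted p = 0.0373, edgeR). It differed from NC by -0.44 with si-circ235-1 (SE 0.18, interval -0.84 to -0.047, adjusted p = 0.155) and by 0.085 with si-circ235-2 (SE 0.18, interval -0.31 to 0.48, adjusted p = 0.751). The difference between the siRNAs passed in 6 of 13 alternatives. It was lost with the size factors of DESeq2 (adjusted p = 0.0505), with no filter on low counts (0.0609), and without NC replicate 2 or any of the 4 siRNA libraries (0.0507 to 0.203).

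SRSF6 (ENSG00000124193.14, chr20:43457928-43464247, plus strand) varied least between conditions, at 213.8 and 264.6 CPM in NC, 231.3 and 226.5 in si-circ235-1, and 257.1 and 236.5 in si-circ235-2. The NC libraries spanned all 4 siRNA libraries, and the test passed in none of the comparisons. The 95% intervals of its log2 fold changes were -0.48 to 0.35 with si-circ235-1 against NC, -0.37 to 0.46 with si-circ235-2 against NC and -0.30 to 0.52 between the siRNAs, and differences within these intervals are not excluded by the data.

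**Figure D3:**
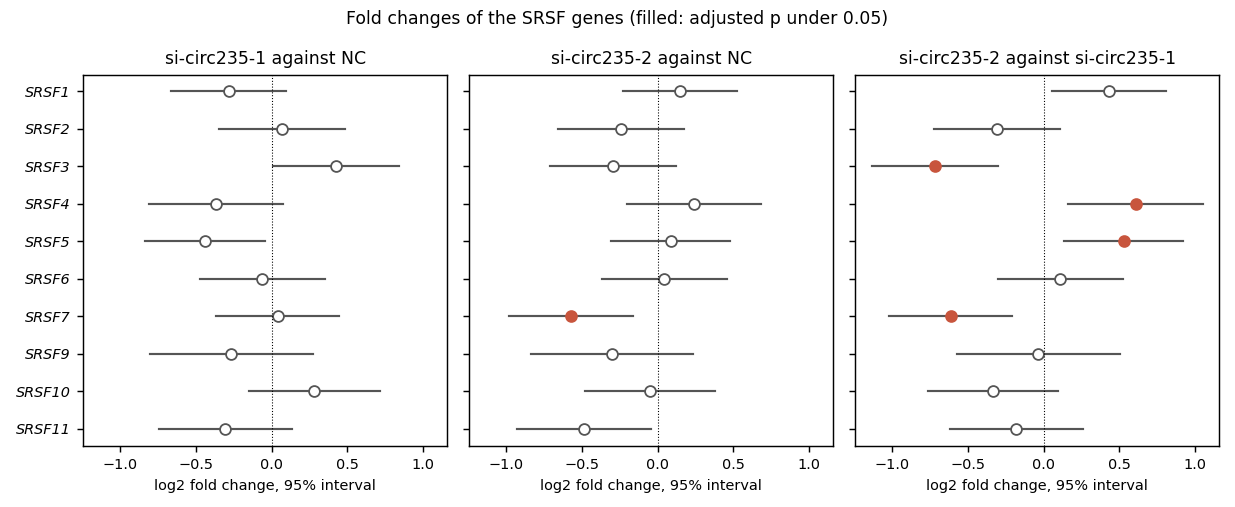
log2 fold change (points) and 95% interval (lines) of each SRSF gene in the 3 comparisons by edgeR, filled where the adjusted p was under 0.05. No point is filled for si-circ235-1 against NC, SRSF7 alone is filled for si-circ235-2 against NC, and SRSF3, SRSF4, SRSF5 and SRSF7 are filled between the siRNAs.

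SRSF1 and SRSF9 are close relatives with a pair of RNA recognition motifs each. SRSF1 (ENSG00000136450.12, chr17:58003360-58007346, minus strand), the founding member of the family and a known proto-oncogene, was at 136.9 and 143.9 CPM in NC, at 116.1 and 114.4 in si-circ235-1, and at 163.4 and 147.4 in si-circ235-2. The conditions did not overlap and stood in the same order as those of SRSF4. Its log2 fold change was -0.28 with si-circ235-1 (interval -0.66 to 0.094, adjusted p = 0.333) and 0.15 with si-circ235-2 (interval -0.23 to 0.52, adjusted p = 0.545) against NC, and 0.43 between the siRNAs (SE 0.17, interval 0.052 to 0.81, adjusted p = 0.0674, edgeR). None passed, though the last passed in 4 of 13 alternatives. Exons of AC015813.2, at 0 CPM throughout, overlap those of SRSF1 by 1890 nt on the same strand. Whether reads shared by these genes were counted for SRSF1 is not known, so its level may be too low. NC lay between the siRNAs with no overlap for 3 of 10 members (SRSF1, SRSF3 and SRSF4), and for 17.1% of all genes tested.

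SRSF9 (ENSG00000111786.8, chr12:120461668-120469793, minus strand), the member with the shortest tail, was at 78.39 and 68.51 CPM in NC, at 77.36 and 44.82 in si-circ235-1, and at 61.89 and 57.17 in si-circ235-2. The si-circ235-1 libraries differed more from each other than any condition mean did from another. Its log2 fold changes were -0.27 (interval -0.80 to 0.27), -0.30 (interval -0.84 to 0.23) and -0.036 (interval -0.57 to 0.50) in the order used above, and none passed. Exons of GATC, at 28.2 to 35.3 CPM, overlap those of SRSF9 by 1729 nt on the other strand. The paper describes the sequencing as not strand-specific, so strand cannot tell which of the 2 genes a read in that stretch came from.

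SRSF2 (ENSG00000161547.16, chr17:76734115-76737374, minus strand), a resident of nuclear speckles known for hotspot mutations in myeloid cancers, was at 183.8 and 215.6 CPM in NC, at 199.8 and 218.9 in si-circ235-1, and at 184.7 and 153.4 in si-circ235-2. Both si-circ235-2 libraries lay below si-circ235-1 and overlapped NC. Its log2 fold change was 0.069 (interval -0.35 to 0.48) with si-circ235-1 and -0.24 (interval -0.66 to 0.18) with si-circ235-2 against NC, and -0.31 (interval -0.73 to 0.11, adjusted p = 0.215) between the siRNAs. None passed, but after removing the trend over length and GC content SRSF2 was lower in si-circ235-2 than in both other conditions (adjusted p = 0.027 against NC and 0.00779 against si-circ235-1). Exons of MFSD11, at 13.1 to 22.9 CPM, overlap those of SRSF2 by 1106 nt on the other strand, and reads there cannot be told apart by strand either.

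SRSF10, which represses splicing when it is dephosphorylated, and SRSF11, an SR-related member, have a lone RNA recognition motif. SRSF10 (ENSG00000188529.14, chr1:23964804-23980927, minus strand) was at 102.0 and 118.5 CPM in NC, at 122.4 and 145.6 in si-circ235-1, and at 93.64 and 118.9 in si-circ235-2. The si-circ235-1 libraries lay above the other 4, but with log2 fold changes of 0.28 with si-circ235-1 against NC (interval -0.15 to 0.71) and -0.33 between the siRNAs (interval -0.77 to 0.097) the test did not pass, nor for si-circ235-2 against NC (-0.053, interval -0.48 to 0.38). With the trend over length and GC content removed, SRSF10 passed as lower in si-circ235-2 than in si-circ235-1 (-0.42, adjusted p = 0.0221). SRSF11 (ENSG00000116754.13, chr1:70205682-70253052, plus strand) was at 127.8 and 133.2 CPM in NC, at 95.2 and 116.0 in si-circ235-1, and at 79.42 and 106.9 in si-circ235-2. Both NC libraries lay above the other 4, and the siRNAs overlapped. Its log2 fold change against NC was -0.31 with si-circ235-1 (interval -0.75 to 0.14, adjusted p = 0.376) and -0.49 with si-circ235-2 (SE 0.20, interval -0.93 to -0.045, adjusted p = 0.0874), and -0.18 between the siRNAs (interval -0.62 to 0.26, adjusted p = 0.501).

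Across the 6 libraries, some of the members formed sets that went up and down together, given here as a description. Pearson's r of log2 CPM was 0.965 for SRSF1 and SRSF5, 0.899 for SRSF1 and SRSF4, and 0.847 for SRSF4 and SRSF5. It was 0.824 for SRSF3 and SRSF7 and 0.83 for SRSF2 and SRSF7. The highest r of SRSF9 to any member was 0.439 (SRSF4), and that of SRSF11 was 0.451 (SRSF7). SRSF3 ran opposite to the first set, with r of -0.917 to SRSF1, -0.894 to SRSF4 and -0.852 to SRSF5. These 6 points are 3 conditions of 2 libraries, which share scaling and treatment. Likeness in sequence did not go with likeness in level throughout: SRSF4 and SRSF6 had r of 0.575 and SRSF1 and SRSF9 0.145. Of 6979 other genes with a mean of at least 20 CPM, those most like the members' mean log2 CPM were RNF14 (r = 0.941), ORMDL1 (0.933) and CYB5B (0.932) over the 6 libraries. That mean spanned a narrow range, equal to 138.1 to 161.7 CPM.

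**Figure D4:**
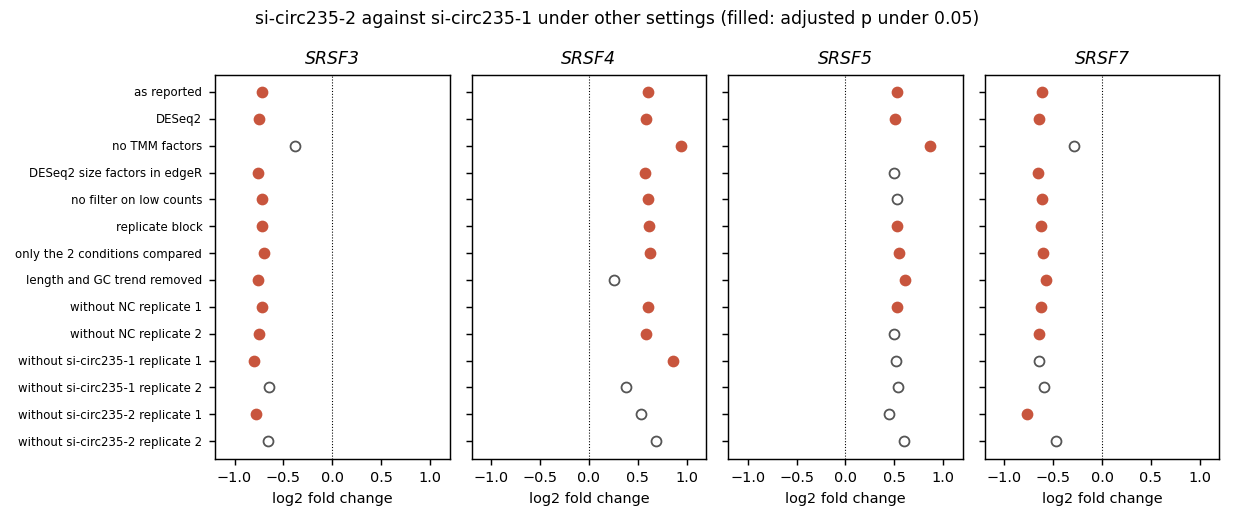
log2 fold change of SRSF3, SRSF4, SRSF5 and SRSF7 in si-circ235-2 against si-circ235-1 as reported and under 13 other settings (vertical axis), filled where the adjusted p was under 0.05. All points keep their side of 0, and SRSF3 is filled in 10 of the 13 other settings, SRSF4 and SRSF7 in 9 and SRSF5 in 6.

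The proteins that modify and carry SR proteins were examined as a list of 8, the kinases SRPK1, SRPK2, SRPK3, CLK1, CLK2, CLK3 and CLK4 and the importin TNPO3. None passed with si-circ235-1 against NC, 2 were higher with si-circ235-2 against NC, and 3 were higher between the siRNAs, with median log2 fold changes of -0.21, -0.16 and 0.49. Of all genes tested, 5.88%, 31.4% and 39.7% passed in the same order. In the first comparison, an unadjusted p under the threshold was found for 1 of the list and for 3644 of the 14415 genes tested. TNPO3, the importer, was at 40.08 and 56.84 CPM in NC, at 53.3 and 35.0 in si-circ235-1, and at 138.4 and 150.7 in si-circ235-2. Both si-circ235-2 libraries lay far above the other 4. The rise was 2.98-fold against NC (log2 fold change 1.58, SE 0.24, adjusted p = 0.00253, edgeR) and 3.28-fold against si-circ235-1 (1.71, SE 0.24, adjusted p = 0.000852), and both passed in all 13 alternatives. SRPK1 was at 75.7 and 79.57 CPM in NC, 82.68 and 92.66 in si-circ235-1, and 121.8 and 136.3 in si-circ235-2, and was higher in si-circ235-2 against NC (0.73, SE 0.18, adjusted p = 0.0109) and against si-circ235-1 (0.56, SE 0.18, adjusted p = 0.0268). After removal of the trend over length and GC content these differences were 0.17 (adjusted p = 0.393) and 0.012 (adjusted p = 0.953). CLK2 was at 10.21 and 5.694 CPM in si-circ235-1 and at 19.18 and 13.62 in si-circ235-2 (log2 fold change 1.05, SE 0.31, adjusted p = 0.0221, edgeR), beside 15.35 and 19.37 in NC. The rest did not pass in any comparison: CLK1 was at 39.77 to 58.98 CPM, CLK3 at 23.28 to 33.31, CLK4 at 4.838 to 15.95, SRPK2 at 7.806 to 16.92 and SRPK3 at 0.4197 to 1.443.

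Of 20 other SR and SR-related proteins, 3 were lower with si-circ235-1 against NC, 3 were higher and 1 lower with si-circ235-2 against NC, and 4 were higher and 2 lower between the siRNAs. Of all genes tested, 5.88%, 31.4% and 39.7% passed in the same order. The median log2 fold changes of the list were -0.44, -0.29 and 0.20. The widest differences were those of SRRM2, a large scaffold protein of nuclear speckles, which was at 230.6 and 295.3 CPM in NC, at 110.5 and 63.69 in si-circ235-1, and at 481.2 and 501.0 in si-circ235-2. SRRM2 fell with si-circ235-1 (log2 fold change -1.60, SE 0.26, adjusted p = 0.0119, edgeR) and rose with si-circ235-2 (0.90, SE 0.26, adjusted p = 0.0226) against NC, and was 5.64-fold higher in si-circ235-2 than in si-circ235-1 (2.50, SE 0.27, adjusted p = 0.000418). The difference between the siRNAs passed in all 13 alternatives, and those against NC in 11 each. The fall was lost without NC replicate 2 (-1.37, adjusted p = 0.0598) or si-circ235-1 replicate 2 (-1.25, adjusted p = 0.158). The rise was lost with the dependence on length and GC content removed (0.48, adjusted p = 0.103) or without NC replicate 1 (0.73, adjusted p = 0.189). SRRM1, a coactivator that works with SR proteins, was at 68.61 and 80.55 CPM in NC, at 37.28 and 34.05 in si-circ235-1, and at 99.48 and 96.6 in si-circ235-2. It fell with si-circ235-1 against NC (-1.06, SE 0.18, adjusted p = 0.0134, lost without NC replicate 2 at 0.0797 or si-circ235-1 replicate 2 at 0.168) and was higher in si-circ235-2 than in si-circ235-1 (1.46, SE 0.18, adjusted p = 0.000591). SON, the other scaffold of speckles, was at 125.8 and 142.8 CPM in NC, 148.8 and 188.8 in si-circ235-1, and 269.5 and 294.0 in si-circ235-2. It rose with si-circ235-2 against NC (1.07, SE 0.19, adjusted p = 0.00381) and was higher than in si-circ235-1 (0.74, SE 0.19, adjusted p = 0.0119), but with the trend over length and GC content removed these were 0.29 (adjusted p = 0.197) and -0.023.

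TRA2A, a splicing activator with RS tails at both ends, was at 51.03 and 63.07 CPM in NC, 62.47 and 76.14 in si-circ235-1, and 42.6 and 42.78 in si-circ235-2. Between the siRNAs, TRA2A was lower in si-circ235-2 (log2 fold change -0.70, SE 0.20, adjusted p = 0.0162, edgeR), a call that held in 9 of 13 alternatives. Its relative TRA2B was at 135.1 to 213.1 CPM, SRSF8 at 24.97 to 38.0 and SRSF12 at 7.089 to 15.16, and none of these passed in any comparison. The others that passed were named after their values were seen. PNN was lower with si-circ235-1 against NC (-0.94, adjusted p = 0.0398), a call that held in 9 of 13 alternatives. Against NC, THRAP3 was higher (0.67, adjusted p = 0.02) and SNRNP70, of the U1 particle, lower (-1.22, adjusted p = 0.0049) with si-circ235-2. The call of THRAP3 held in 9 of 13 alternatives, and its value was 0.14 (adjusted p = 0.484) with the trend over length and GC content removed. THRAP3 was also higher (1.12, adjusted p = 0.00147) and LUC7L lower (-0.64, adjusted p = 0.0345) in si-circ235-2 than in si-circ235-1. The call of LUC7L held in 9 of 13 alternatives.

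**Figure D5:**
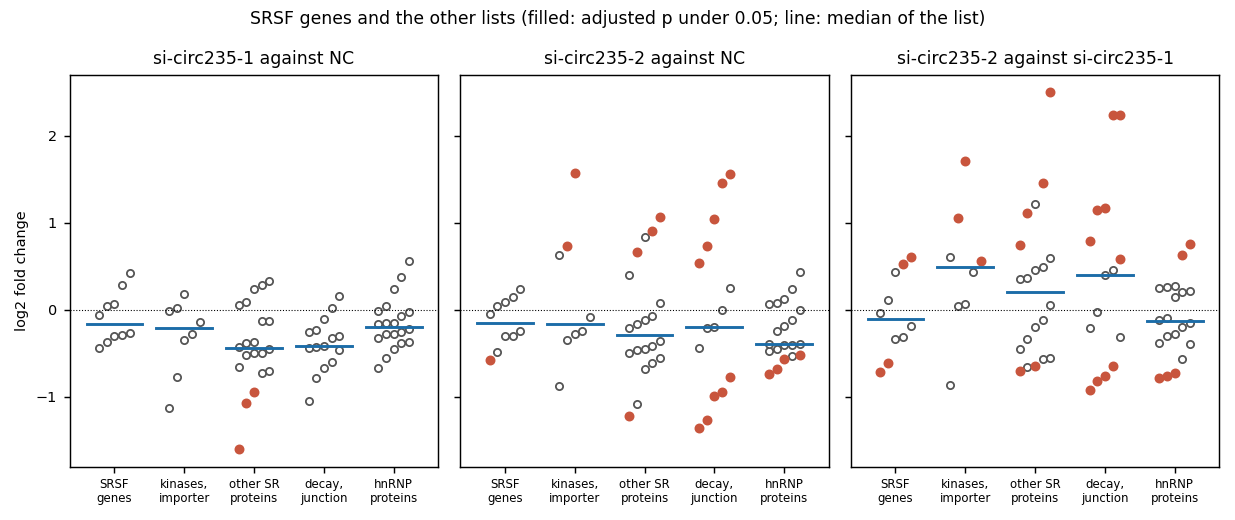
log2 fold change of every SRSF gene and of the 63 genes of the 4 other lists (kinases and importer, other SR proteins, decay and exon junction, hnRNP proteins) in the 3 comparisons, filled where the adjusted p was under 0.05, with a line at the median of each list. The SRSF genes lie between -0.72 and 0.61, while TNPO3 reaches 1.71 and SRRM2 2.50 between the siRNAs.

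Of 15 genes of nonsense-mediated decay and the exon junction complex, which marks spliced exons for that pathway, none passed with si-circ235-1 against NC. An unadjusted p under the threshold was found there for 4 of them and for 3644 of the 14415 genes tested. With si-circ235-2, 5 were higher and 5 lower against NC, and 6 were higher and 4 lower against si-circ235-1. Of all genes tested, 31.4% and 39.7% passed in these comparisons. Median log2 fold changes were -0.42, -0.19 and 0.39. SMG1, the kinase that phosphorylates the helicase UPF1, was at 44.21 and 51.77 CPM in NC, 43.93 and 45.55 in si-circ235-1, and 75.23 and 122.3 in si-circ235-2 (against NC 1.04, SE 0.24, adjusted p = 0.00856, and against si-circ235-1 1.14, SE 0.24, adjusted p = 0.00373, edgeR). SMG1 has near-identical copies in the genome, so its count is uncertain. Its rise against NC was lost with that trend removed (0.24, adjusted p = 0.205), without si-circ235-2 replicate 2 (0.65, adjusted p = 0.0673) and without NC replicate 1 (0.93, adjusted p = 0.093). UPF1 was at 94.57 and 86.86 CPM in si-circ235-1 and at 135.1 and 135.9 in si-circ235-2 (0.58, SE 0.17, adjusted p = 0.0202), beside 116.8 and 110.3 in NC. The call of UPF1 held in 8 of 13 alternatives. UPF2 was at 5.31 to 18.55 CPM and SMG5 at 120.5 to 204.6, and neither passed. Named after their values were seen, SMG6 (1.56), SMG8 (1.45) and CASC3 (0.53) were among the others that were higher with si-circ235-2 against NC. UPF3B (-1.36), SMG9 (-0.94), MAGOH (-1.26), MAGOHB (-0.99) and RBM8A (-0.77) were the lower ones. Adjusted p of these 8 genes ran from 0.003 (MAGOH) to 0.0464 (CASC3), and the call of CASC3 held in 3 of 13 alternatives. The NC libraries differed in SMG6 (6.166 and 12.96 CPM) and SMG8 (5.904 and 14.67 CPM). Without NC replicate 1 the values were 1.12 (adjusted p = 0.136) and 0.94 (adjusted p = 0.126), and without NC replicate 2 they were 2.21 and 2.27. With the trend over length and GC content removed, MAGOHB was at -0.33 against NC (adjusted p = 0.294) and at -0.064 against si-circ235-1 (adjusted p = 0.838). MAGOH, MAGOHB and RBM8A form the core heterodimers of the exon junction complex, to which CASC3 binds. The genes of this complex that passed did not all move in 1 direction, CASC3 being the exception. Against si-circ235-1, CASC3 was higher by 0.79 (adjusted p = 0.00678, edgeR), a call that held in 11 of 13 alternatives. EIF4A3 of the same complex was named after its values were seen. It did not pass against NC (-0.19, adjusted p = 0.463) or against si-circ235-1 (-0.21, adjusted p = 0.398).

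The hnRNP proteins, which often oppose SR proteins at splice sites, were examined as a list of 20. With si-circ235-1 against NC none passed, and 4 had an unadjusted p under the threshold, as had 3644 of the 14415 genes tested. With si-circ235-2 against NC, 4 were lower, and between the siRNAs 2 were higher and 3 lower. Of all genes tested, 31.4% and 39.7% passed in these comparisons. The median log2 fold changes of the list were -0.19, -0.39 and -0.13 in the 3 comparisons. PTBP1, a repressor of exons, was at 455.9 and 502.5 CPM in NC, 378.7 and 274.1 in si-circ235-1, and 516.1 and 493.7 in si-circ235-2 (log2 fold change 0.63 between the siRNAs, SE 0.21, adjusted p = 0.0359, edgeR, a call that held in 8 of 13 alternatives). HNRNPA1, which competes with SRSF1 in many exons and has many processed pseudogenes, was at 514.7 to 979.4 CPM, HNRNPA2B1 at 421.5 to 595.6 and HNRNPH1 at 145.8 to 219.8, and none of these passed in any comparison. The genes lower with si-circ235-2 against NC, named after their values were seen, were HNRNPD (-0.56), HNRNPDL (-0.52), HNRNPH3 (-0.73) and HNRNPM (-0.67). The calls of HNRNPD and HNRNPDL held in 4 of 13 alternatives each. Between the siRNAs, HNRNPL was the other higher gene (0.76), and HNRNPC (-0.76), HNRNPH2 (-0.78) and HNRNPM (-0.72) were the lower ones. Many calls on these lists were lost on leaving out a library of a compared condition, as were many over all genes tested. Such losses were thus not particular to the lists. Log2 fold changes of the called list genes kept their sign but moved on leaving out each library. Those of CLK2 between the siRNAs ran from 0.67 to 1.52, and those of HNRNPM with si-circ235-2 against NC from -0.84 to -0.53.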

How the data were processed

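Poly(A) RNA of T24 cells in 3 conditions with 2 libraries each was sequenced by the authors, who deposited whole-number read counts per gene with no normalization. The submitters' processing notes name FastQC, cutadapt, STAR and hg38. The paper describes the sequencing as not strand-specific. Not given in the sources used here: the counting tool, the annotation and all versions. Reads of overlapping genes or of near-identical copies may thus have been split or lost.

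Columns were assigned to libraries by their names. The labels call the conditions siControl, siRNA1 and siRNA2, and the paper's names for them are used here, with siRNA1 taken as si-circ235-1 and siRNA2 as si-circ235-2. The counts were fitted with edgeR 4.0.16 under R 4.3.3, using filterByExpr, TMM, 1 mean per condition over 6 libraries, the quasi-likelihood test and Benjamini-Hochberg adjustment. Alternatives were DESeq2 1.42.0, its size factors, no TMM, no filter, the replicate block, the 2 conditions alone, removal of a spline trend over transcript length and GC content, a fold of at least 1.5, and each library left out. The script was tested on simulated data. Levels are CPM after TMM, divided by principal transcript length where genes are compared. Annotation, exons and sequences came from GENCODE release 29 (GRCh38), which held 99.5% of the gene IDs and may differ from the authors' annotation. Proteins were translated from it and aligned with Biopython 1.88 (BLOSUM62, gaps 10 and 0.5).

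The members and the 4 other lists were chosen with earlier results of these data known. The rule named all 10 members, 23 genes of the lists whatever their values, and the 3 genes most like the members' mean. Some genes counted in the lists are not reported here by name. The other genes named are marked as chosen after their values were seen.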

Additional observations from a re-analysis of the deposited data

Results flagged for a closer look

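The effects of the 2 siRNAs differed, by the direct edgeR test of si-circ235-2 against si-circ235-1, for 4 SRSF genes, with log2 fold changes of -0.72 for SRSF3, 0.61 for SRSF4, 0.53 for SRSF5 and -0.62 for SRSF7. Among the genes that modify or import SR proteins, the same difference was 0.56 for SRPK1, 1.05 for CLK2 and 1.71 for TNPO3. Among the other SR proteins it was -0.70 for TRA2A, 1.46 for SRRM1, 2.50 for SRRM2, 0.74 for SON, 1.12 for THRAP3 and -0.64 for LUC7L. For the decay and exon junction genes it was 0.58 for UPF1, 1.14 for SMG1, 2.24 for SMG6, 2.24 for SMG8, -0.64 for SMG9, -0.82 for MAGOH, -0.76 for MAGOHB, -0.92 for RBM8A and 0.79 for CASC3. For the hnRNP genes it was -0.76 for HNRNPC, -0.78 for HNRNPH2, 0.76 for HNRNPL, -0.72 for HNRNPM and 0.63 for PTBP1. Differences of this kind were common, with 39.7% of all genes tested past the same threshold. Conditions of 2 libraries are too small to test whether a library stands far from the others.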

How the results depend on the processing

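With si-circ235-1 against NC, the count of SRSF genes called was 0 under every alternative run. With si-circ235-2 against NC it was 1 as reported, 0 without TMM scaling, with the 2 conditions alone and with a fold of at least 1.5, and 2 once the length and GC trend was removed. Leaving out each library gave 0 to 0. Between the siRNAs the count was 4 as reported and 3 to 6 under the alternatives that kept all libraries of both siRNAs. Leaving out each library gave 0 to 4, with 0 when replicate 2 of either siRNA was dropped. The composition of the calls moved more than their number: without TMM scaling they were SRSF1, SRSF4 and SRSF5, all higher. Deviations of same-numbered libraries from their condition means had correlations over genes of -0.117, 0.198 and 0.19. No reference value was set for these, so a pairing of libraries by replicate number is neither shown nor excluded. With the replicate block, 2 SRSF genes were called in si-circ235-2 against NC (SRSF7 and SRSF11) and 5 between the siRNAs, and SRSF9 turned to 0.0041 between the siRNAs.

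Log2 fold changes that turned sign were those of members that had not passed, and of SON between the siRNAs (-0.023, trend removed). Without TMM scaling they were SRSF2 (-0.021) and SRSF7 (-0.036) with si-circ235-1, SRSF2 (0.0023) and SRSF10 (0.20) with si-circ235-2, and SRSF2 (0.023), SRSF9 (0.30), SRSF10 (0.010) and SRSF11 (0.17) between the siRNAs. With the trend removed they were SRSF4 (-0.22) and SRSF6 (-0.094) with si-circ235-2, and SRSF9 (0.24) and SRSF11 (0.0245) between the siRNAs. On leaving out each library, ranges crossed 0 for SRSF2 (-0.044 to 0.23), SRSF6 (-0.21 to 0.14) and SRSF9 (-0.72 to 0.077) with si-circ235-1, for SRSF5 (-0.038 to 0.22), SRSF6 (-0.107 to 0.22) and SRSF10 (-0.24 to 0.107) with si-circ235-2, and for SRSF9 (-0.39 to 0.41) and SRSF11 (-0.41 to 0.0167) between the siRNAs. The causes were not tested. Over all genes, calls with si-circ235-1 against NC numbered 847 as reported, 1336 by DESeq2, 1678 with no filter, 1642 with the 2 conditions alone, 1966 with the trend removed and 0 to 1482 on leaving out a library (0 without si-circ235-1 replicate 2). On leaving out a library they were 769 to 4240 for si-circ235-2 against NC (4530 as reported) and 2817 to 5558 between the siRNAs (5725). With the trend removed, 60.4%, 43.3% and 42.5% of calls were higher. Of the 20 list genes called with si-circ235-2 against NC, 6 were lost without TMM scaling and 9 with the trend removed, and of the 24 between the siRNAs, 8 and 6. All 3 called with si-circ235-1 against NC were lost without NC replicate 2 or si-circ235-1 replicate 2.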

Other observations

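Nuclear speckles and the paraspeckles beside them also hold long noncoding RNAs, whose levels were looked at after the SRSF results were known. Polyadenylated RNA was sequenced and counted per gene, so these values may miss part of the NEAT1 and MALAT1 RNA that lacks a poly(A) tail. NEAT1, whose RNA is part of paraspeckles, was at 206.2 and 182.3 CPM in NC, 59.32 and 56.27 in si-circ235-1, and 139.8 and 137.2 in si-circ235-2. In log2 terms it fell by 1.75 with si-circ235-1 against NC (SE 0.18, adjusted p = 0.00586, edgeR), and was 1.26 higher in si-circ235-2 than in si-circ235-1 (SE 0.18, adjusted p = 0.000794). Its difference of -0.49 with si-circ235-2 against NC did not pass (SE 0.17, adjusted p = 0.0519). MALAT1, which lies in speckles and binds SR proteins, was at 105.1 and 121.0 CPM in NC, 64.56 and 68.44 in si-circ235-1, and 61.19 and 115.2 in si-circ235-2. The si-circ235-2 libraries differed widely in MALAT1, and it did not pass in any comparison (log2 fold change -0.77 with si-circ235-1 against NC, adjusted p = 0.102).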
